A study of Mus musculus with 21 samples.

Results

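The genes of voltage-gated calcium and sodium channels were compared among sorted mouse pancreatic β-cells of 3 groups, labelled WT, Ldb1-KO and Isl1-KO. Members were all rows of the expression table whose symbol begins with Cacna, Cacnb or Cacng, or with Scn followed by a number and a or b. This rule took 40 of 21913 genes, 26 of calcium channels and 14 of sodium channels, and it used no measured value. LDB1 links transcription factors that carry LIM domains to each other and to DNA, and the homeodomain protein ISL1 is one of those that islet cells make. Total RNA of 18 libraries was sequenced, from lineage-positive cells of dispersed islets of male mice on a mixed SV/129 and C57Bl/6 background.

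The 5 WT libraries came from Rosa26LsLeYFP/LsLeYFP; MIP-CreERTm mice at day 56, which carry a YFP reporter and an insulin-promoter-driven Cre recombinase that tamoxifen switches on. The 8 Ldb1-KO libraries came from mice of the same age with the Ldb1L/L alleles beside the same reporter and Cre. Both groups received 150 µg/g tamoxifen in 5 gavages from day 28 and the same again from day 35. The 5 Isl1-KO libraries came from mice with the Isl1L/L alleles, the same reporter and Cre, taken at day 49 after 100 µg/g tamoxifen from day 28 alone. In comparisons with the Isl1-KO group, genotype, age and tamoxifen dose therefore cannot be told apart. All 3 groups carried the Cre and received tamoxifen, so no group shows cells without them. Whether replicate libraries stem from different mice is not in the labels, and the p-values cover the spread between libraries, which may be technical.

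Values are log2 of the authors' normalized expression value plus 1, called log2 values here. They are not scaled by gene length, so levels are compared between groups for one gene and not between genes. Absolute depth is unknown. One read step, averaged over the lowest 20 distinct values above 0, was worth 0.714 to 1.45 normalized units. Between 13353 and 14129 genes lay above 0 in a library. By the value of a read step, the WT libraries 1 and 5, the Ldb1-KO libraries 2, 5, 6, 7 and 8 and the Isl1-KO library 3 were called deeper. The Isl1-KO library 3 had fewer genes above 0 (13719) than the Isl1-KO libraries 2 and 4 (13821 and 13882), so its place in that set is uncertain. In the deeper set it is a lone Isl1-KO library, assumed there to vary like the libraries of the other groups. The log2 value of Ldb1 itself was 7.51 ± 0.22 (SD, n = 5) in WT and 6.40 ± 0.42 (n = 8) in Ldb1-KO, with no overlap. That of Isl1 was 9.33 ± 0.26 (n = 5) in Isl1-KO against 9.55 ± 0.11 in WT, with overlap, so the level of its RNA did not check that label. Isl1 RNA was also higher in Ldb1-KO, at 10.6 ± 0.37, than in every WT library. The Isl1-KO libraries 1 to 3 stood apart from libraries 4 and 5, and no label gives a batch. Of the 23 channel genes tested, 12 were higher in libraries 1 to 3 than in 4 and 5 with no overlap and 1 was lower, while over all 13501 genes tested 21.4% were higher and 25.2% lower. Where a described channel gene or a named partner loses its call with libraries 4 and 5 alone, that value is given.

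A voltage-gated channel opens when the cell membrane depolarises. In a β-cell, glucose metabolism closes potassium channels, the membrane depolarises, calcium enters through voltage-gated calcium channels and the rise in calcium triggers the release of insulin. Sodium channels add to the upstroke of the action potential. A calcium channel is built from a pore-forming α1 subunit (Cacna1 genes), an extracellular α2δ subunit (Cacna2d genes) and an intracellular β subunit (Cacnb genes). The Cacng genes encode γ subunits, several of which are known for regulating AMPA-type glutamate receptors. A sodium channel has 1 pore-forming α subunit and smaller β subunits with a single membrane span.

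The promoters of 3 sodium channel genes are shown because their RNA levels separate the groups in different ways below. Scn2a1 (Scn2a in RefSeq) passed the test between the knockouts with all libraries, though not in every subset, and Scn4a was near the detection limit in WT. Scn9a, in the same cluster on chromosome 2 as Scn2a1, did not pass the test in either knockout against WT. The sequences are the 250 bases before each RefSeq transcription start in build GRCm38.p6, written 5′ to 3′ on the gene's strand. Capitals mark TAAT on either strand (ATTA when read on the other), the core letters that many homeodomain proteins bind. 30 of the 40 genes matched this promoter table.
Scn2a, first start, chr2:65620519-65620768, plus strand: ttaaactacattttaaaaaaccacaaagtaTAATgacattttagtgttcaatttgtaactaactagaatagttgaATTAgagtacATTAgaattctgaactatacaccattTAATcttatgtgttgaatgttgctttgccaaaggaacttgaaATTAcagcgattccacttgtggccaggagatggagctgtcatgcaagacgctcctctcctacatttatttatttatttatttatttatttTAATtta
Scn2a, second start, chr2:65668436-65668685, plus strand: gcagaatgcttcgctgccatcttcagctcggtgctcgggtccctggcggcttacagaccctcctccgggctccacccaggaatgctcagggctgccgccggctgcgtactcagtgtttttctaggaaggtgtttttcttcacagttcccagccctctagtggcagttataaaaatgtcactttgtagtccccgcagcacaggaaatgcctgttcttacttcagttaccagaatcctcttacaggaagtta
Scn4a, chr11:106349391-106349640, minus strand: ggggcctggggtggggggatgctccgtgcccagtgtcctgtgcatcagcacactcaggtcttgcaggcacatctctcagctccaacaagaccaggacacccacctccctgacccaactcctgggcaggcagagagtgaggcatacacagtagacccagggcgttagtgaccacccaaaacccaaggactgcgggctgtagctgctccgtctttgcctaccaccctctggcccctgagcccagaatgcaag
Scn9a, chr2:66634963-66635212, minus strand: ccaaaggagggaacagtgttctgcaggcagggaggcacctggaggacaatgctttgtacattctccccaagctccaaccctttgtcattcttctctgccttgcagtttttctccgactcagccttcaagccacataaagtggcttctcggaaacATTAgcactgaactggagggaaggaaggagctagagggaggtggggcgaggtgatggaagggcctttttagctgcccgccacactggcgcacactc
The first Scn2a start holds 6 such motifs in AT-rich sequence, with a GC content of 29.6%. The second start and Scn4a hold 0, and Scn9a holds 1. Of 32851 RefSeq mouse promoters cut to the same length, 54.9% hold at least 1 TAAT and 3.26% hold 6 or more. Of the 41 promoters of the channel genes, 17 (41.5%) hold at least 1. These matches describe letters and do not show binding.

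Most channel genes were low or silent. Of the 40, 23 reached a normalized value of 1 on average over the 18 libraries and were tested, 16 calcium and 7 sodium channel genes. Of the other 17, 7 were at 0 in every library. Among these were Cacng1, Cacng2, Cacng5, Cacng6, Scn4b and Scn10a. The remaining 10 were Cacna1e, Cacna1s, Cacna2d4, Cacng3, Cacng7, Cacng8, Scn1a, Scn2b, Scn7a and Scn11a, and none exceeded a log2 value of 2.55 in any library. Among them, Cacna1e, the R-type calcium pore, had log2 values of 0, 1.16, 2.55, 0 and 2.55 in the WT libraries.

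Against WT, 4 channel genes rose in Ldb1-KO and 0 fell, and all 4 were sodium channel genes. They were the pore genes Scn3a, Scn2a1 and Scn4a and the β-subunit gene Scn3b. Over all 13501 genes tested, 10.6% were called higher and 11.0% lower in that comparison, 21.7% in either direction (limma, Benjamini-Hochberg adjusted p under 0.05). None of the 16 calcium channel genes tested was called by limma in the fit of all 18 libraries, and 3 of them had an unadjusted p under 0.05. The authors' deposited table also puts 0 of these calcium channel genes past 0.05. In some alternative fits Cacna1a passed, as given below. With the deeper libraries alone the log2 differences were 1.21 for Scn2a1, 1.18 for Scn4a, 0.59 for Cacna1a and -0.66 for Cacna1c, so the split between sodium and calcium channel genes depends on the libraries used. In Isl1-KO against WT, 6 channel genes rose and 0 fell, where 7.02% of all genes tested were called higher and 8.39% lower, 15.4% in either direction. These were Scn3a, Scn3b, Scn4a and Scn8a among the sodium channel genes and Cacna1a and Cacng4 among the calcium channel genes. With the Isl1-KO libraries 4 and 5 alone 2 rose, Scn3a and Scn3b, and with libraries 1 to 3 alone 9 rose and 1, Cacnb4, fell. Over all genes tested, 510 were called higher and 603 lower with libraries 4 and 5 alone, against 948 and 1133 with all Isl1-KO libraries. For libraries 1 to 3 alone the count over all genes is not given here. Of the 23 tested genes, 6 averaged a normalized value under 1 in WT (Scn4a, Cacng4, Cacna1g, Cacna1h, Cacna1i and Cacna2d3) and owe their place among those tested to knockout libraries. Among the other 17, 3 rose in Ldb1-KO and 4 in Isl1-KO. The median log2 difference of the 7 tested sodium channel genes was 1.78 in Ldb1-KO and 0.69 in Isl1-KO, while that of the 16 calcium channel genes was 0.05 and 0.32 and that of all genes tested was -0.01 and -0.03. These medians include the 6 genes that owe their place to knockout libraries. Scn4a is among the sodium channel genes and the others are among the calcium channel genes. Both comparisons use the same WT libraries. In these bulk samples, fewer cells of a type and less RNA per cell cannot be told apart.

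**Figure D1:**
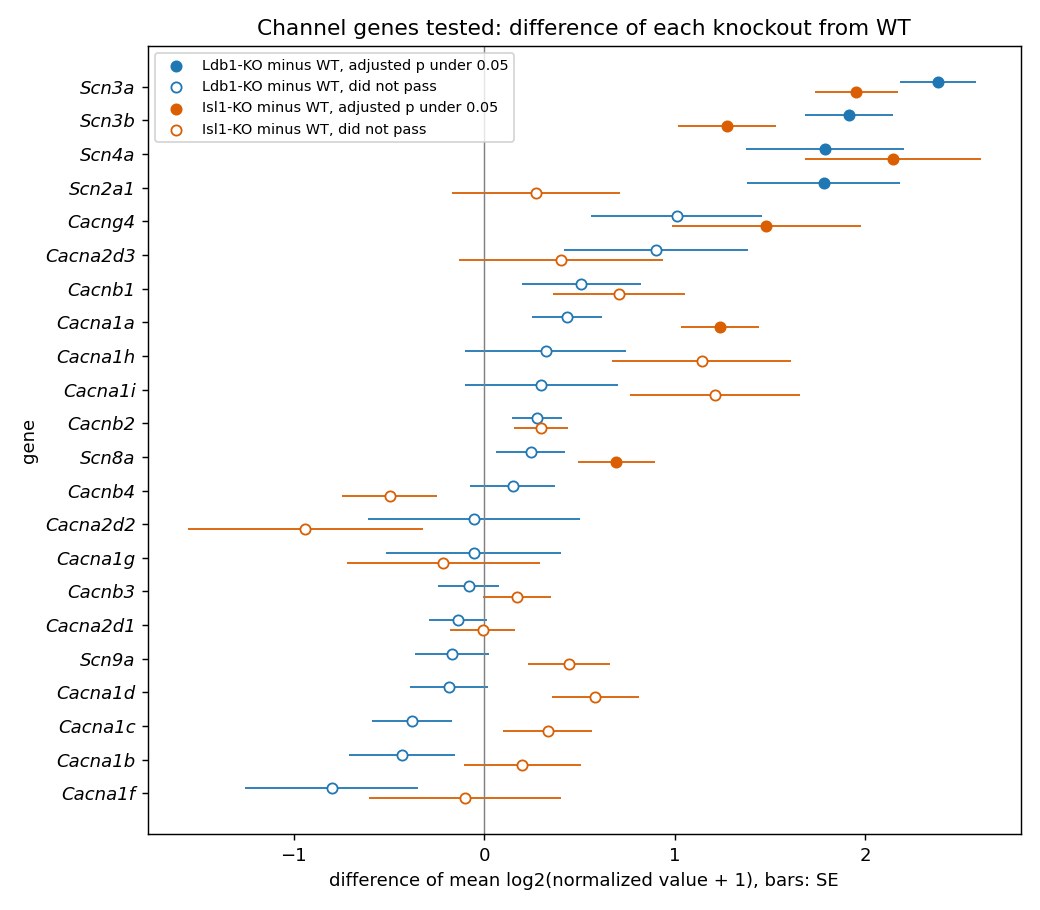
Log2 difference from WT (horizontal axis) of tested channel genes in Ldb1-KO and Isl1-KO, with bars of 1 moderated SE and filled points for adjusted p under 0.05. Scn3a and Scn3b lie to the right in both knockouts, and the point of Cacna1a is filled for Isl1-KO and open for Ldb1-KO.

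Scn3a encodes a sodium channel pore of the tetrodotoxin-sensitive kind, known from embryonic brain and from islet cells. Its log2 values were 6.70, 7.39, 7.31, 6.57 and 7.30 in the WT libraries. The 8 Ldb1-KO libraries ranged from 8.79 to 9.81 with a median of 9.46, and the Isl1-KO libraries gave 9.31, 9.49, 8.23, 9.27 and 8.74. Every knockout library of either genotype therefore lay above every WT library. The log2 difference was 2.38 (SE 0.20) in Ldb1-KO, 5.21-fold in value plus 1, with an adjusted p of 4.26e-09 (limma). In Isl1-KO it was 1.95 (SE 0.22), 3.87-fold, with an adjusted p of 1.16e-06. The Isl1-KO value did not rest on one side of the split, with 1.95 in libraries 1 to 3 and also in libraries 4 and 5. In the deeper libraries alone, with a single Isl1-KO library, the Isl1-KO difference was 1.23.

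Scn3b encodes a β subunit of sodium channels that carries an immunoglobulin-like domain. Its log2 values were 3.80, 3.33, 3.92, 3.41 and 3.83 in WT. In Ldb1-KO they ran from 5.15 to 6.06 with a median of 5.55, and in Isl1-KO they were 5.50, 5.53, 4.35, 4.55 and 4.74. No knockout library reached down to the WT range. The log2 difference from WT was 1.92 (SE 0.23, 3.77-fold in value plus 1, adjusted p = 1.22e-06, limma) in Ldb1-KO. It was 1.27 (SE 0.26, 2.42-fold, adjusted p = 0.00132, limma) in Isl1-KO. In the deeper libraries alone, which hold 1 Isl1-KO library, the Isl1-KO difference was 0.53. Scn3a and Scn3b were the 2 channel genes whose Ldb1-KO and WT libraries did not overlap, against 10.8% of all genes tested.

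Markers of β-cells and of other cell types also moved between the groups. All 10 β-cell markers were present, and 9 fell in Ldb1-KO and 6 in Isl1-KO. Their summed level had a log2 value of 19.1 to 19.4 in WT, 17.7 to 18.7 in Ldb1-KO and 18.5 to 19.1 in Isl1-KO. Of 6 α-cell markers 5 were in the table and 4 were tested, of which 3 rose in Ldb1-KO (Gcg, Ttr and Irx2) and 1 in Isl1-KO (Ttr). Their summed log2 level was 10.9 to 11.8 in WT, 13.3 to 15.7 in Ldb1-KO and 12.9 to 13.9 in Isl1-KO, and Irx1 was at 0 in all WT libraries. Gcg, the glucagon gene, ranged from 7.47 to 9.21 in WT, from 9.81 to 13.3 in Ldb1-KO and from 7.92 to 12.7 in Isl1-KO. Since α-cells are known to express Scn3a, these values stand beside its rise, and their part in it was not tested. Of 3 δ-cell markers, 1 rose in Ldb1-KO (Sst, 1.27 on the log2 scale, adjusted p = 0.039, limma) and 0 fell. In Isl1-KO 0 rose and 1 fell (Rbp4, -1.63, adjusted p = 6.83e-06). Hhex was called in neither. Summed markers of δ-cells ran from 8.38 to 9.62, 9.49 to 10.7 and 8.19 to 10.9 in the same groups, and their part was not tested either. Of 5 duct markers, 2 rose in Ldb1-KO (Spp1 by 3.13 on the log2 scale, among them) and 3 in Isl1-KO (among them Spp1 by 2.72 and Krt7 by 0.69), with summed log2 levels of 9.49 to 9.93 in WT, 9.68 to 10.8 in Ldb1-KO and 10.1 to 11.1 in Isl1-KO, and their part was not tested. Of 9 tested acinar markers 0 were called, and the summed level reached 15.7 in WT library 1, against at most 11.1 in Ldb1-KO and 9.53 in Isl1-KO. Without that WT library Scn3a differed by 2.29 in Ldb1-KO and 1.87 in Isl1-KO. Of 4 neuronal markers in the table, Dbh was among those at 0 in all 18 libraries, and the summed level reached at most 0.94 in any of them.

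**Figure D2:**
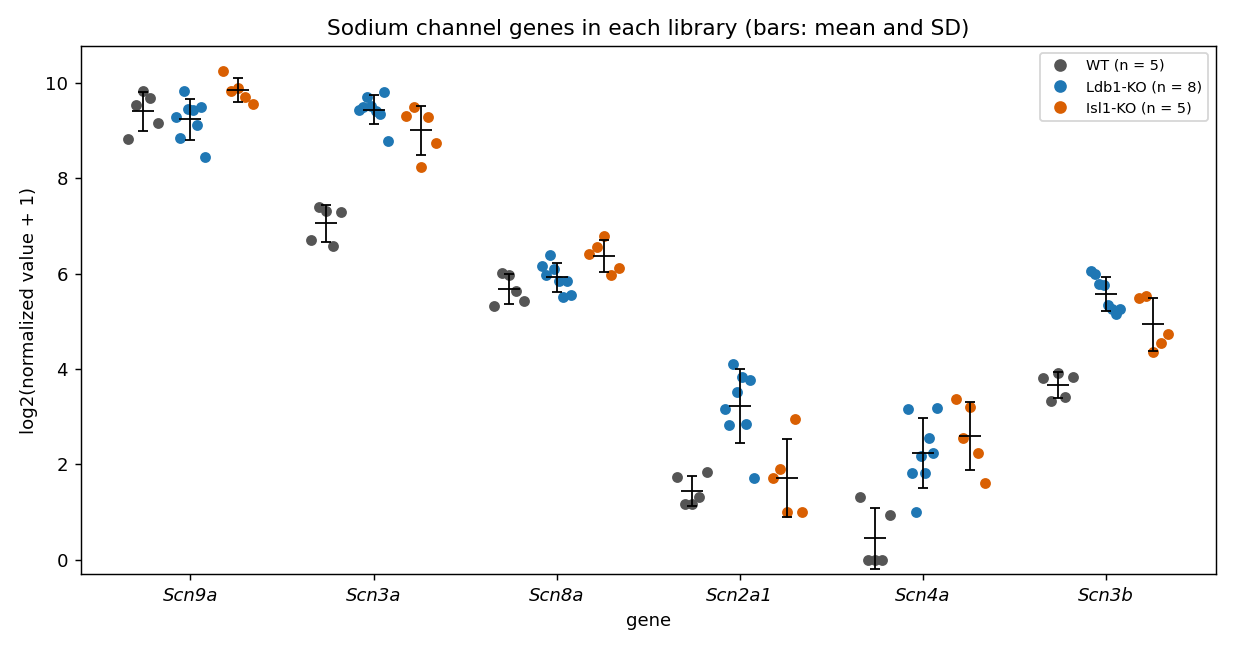
Log2(normalized value + 1) (vertical axis) of sodium channel genes in each of the 18 libraries, with a point per library and bars for group mean and SD. The Ldb1-KO and Isl1-KO points of Scn3a (8.23 and above) lie over all WT points (7.39 and below), and those of Scn9a overlap with WT.

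Scn2a1 encodes a sodium channel pore best known from the axons of excitatory neurons. It was low in WT, at 1.75, 1.16, 1.16, 1.33 and 1.83 on the log2 scale. The Ldb1-KO libraries spread from 1.71 to 4.11 with a median of 3.35, and the Isl1-KO libraries gave 1.71, 1.92, 1.00, 2.96 and 1.00. The lowest Ldb1-KO library lay within the WT range, and all 8 were above the WT mean. The rise in Ldb1-KO was 1.78 on the log2 scale (SE 0.40, 3.44-fold in value plus 1, adjusted p = 0.002, limma). In the deeper libraries alone it was 1.21 (adjusted p = 0.139). The log2 difference of Isl1-KO from WT was 0.27 (SE 0.44, adjusted p = 0.737).

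Scn4a encodes the sodium channel pore that is the main one of skeletal muscle. It was listed at 0 in 3 of the 5 WT libraries, and the other 2 had log2 values of 1.33 and 0.94. The Ldb1-KO libraries ran from 1.00 to 3.18 with a median of 2.21, and the Isl1-KO libraries gave 3.38, 2.56, 3.21, 2.23 and 1.62. The Isl1-KO libraries all lay above WT, while 1 Ldb1-KO library, the one at 1.00, lay within the WT range. The log2 difference was 1.79 (SE 0.42, adjusted p = 0.0027, limma) in Ldb1-KO and 2.15 (SE 0.46, adjusted p = 0.00235) in Isl1-KO, from a WT mean normalized value of 0.486, below a single read step. It was tested because its mean in the knockouts was higher, at 4.28 and 5.66 normalized units. In the deeper libraries alone the Ldb1-KO difference was 1.18 (adjusted p = 0.112, limma) and that of the lone Isl1-KO library 2.07. With the Isl1-KO libraries 4 and 5 alone the Isl1-KO difference was 1.47 (adjusted p = 0.164, limma). The skeletal muscle genes Myh2 and Tnnt3 were at 0 in all 18 libraries, and the summed level of the 5 muscle markers in the table had a log2 value of 2.49 to 3.81 in WT, 2.17 to 3.19 in Ldb1-KO and 2.24 to 3.34 in Isl1-KO.

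Scn8a and Scn9a encode further tetrodotoxin-sensitive pores, and the Scn9a channel is also the one for which loss in humans abolishes pain. For Scn8a the log2 values were 5.33, 6.02, 5.96, 5.64 and 5.43 in WT, 5.51 to 6.40 with a median of 5.91 in Ldb1-KO, and 6.42, 6.55, 6.79, 5.97 and 6.12 in Isl1-KO. The Isl1-KO libraries were all above the WT mean, and 1 of them lay within the WT range. The Isl1-KO rise in Scn8a was 0.69 on the log2 scale (SE 0.20, 1.62-fold in value plus 1, adjusted p = 0.0214, limma). It missed the threshold without WT library 1 (0.61, adjusted p = 0.0642), WT library 5 (0.63, 0.0579), Isl1-KO library 2 (0.65, 0.0553) or Isl1-KO library 3 (0.59, 0.0671), and it was 0.36 (adjusted p = 0.478) with the Isl1-KO libraries 4 and 5 alone. In Ldb1-KO the log2 difference of Scn8a was 0.24 (SE 0.18, adjusted p = 0.374).

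The log2 values of Scn9a were 8.82, 9.53, 9.82, 9.69 and 9.16 in WT, 8.45 to 9.82 with a median of 9.35 in Ldb1-KO, and 10.3, 9.83, 9.89, 9.70 and 9.56 in Isl1-KO. The 3 groups overlapped. The log2 difference from WT was -0.17 (SE 0.19, adjusted p = 0.594, limma) in Ldb1-KO and 0.44 (SE 0.22, adjusted p = 0.173) in Isl1-KO. Thus Scn3a and Scn9a, which lie in the same gene cluster, had log2 differences of 2.38 and -0.17 in the same Ldb1-KO libraries.

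Mouse chromosome 2 carries a cluster of sodium channel genes in the order Scn3a, Scn2a1, Csrnp3, Galnt3, Ttc21b, Scn1a, Scn9a and Scn7a, with Cobll1 and Slc38a11 ahead of Scn3a, by the RefSeq annotation of GRCm38.p6. The gene next to Scn3a, Slc38a11, which encodes an amino acid transporter of the SLC38 family, had a WT range of 0 to 1.33 on the log2 scale and an Ldb1-KO range of 0.78 to 3.33. Its log2 difference in Ldb1-KO was 1.77 (SE 0.47, adjusted p = 0.00822, limma), and in Isl1-KO 0.59 (SE 0.52, adjusted p = 0.496). Slc38a11 was near 0 in WT and owed its place among the tested genes to the knockouts. For the other genes of the row the log2 differences in Ldb1-KO were -0.22 for Cobll1 (adjusted p = 0.516), 0.48 for Csrnp3 (adjusted p = 0.579) and 0.24 for Ttc21b (adjusted p = 0.331), and Galnt3 was too low to be tested. Scn1a was at 0 in all WT libraries and reached at most 1.71 in Ldb1-KO and 1.90 in Isl1-KO. These genes were picked for their place beside Scn3a, and whether neighbours move together more often than other genes was not tested.

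**Figure D3:**
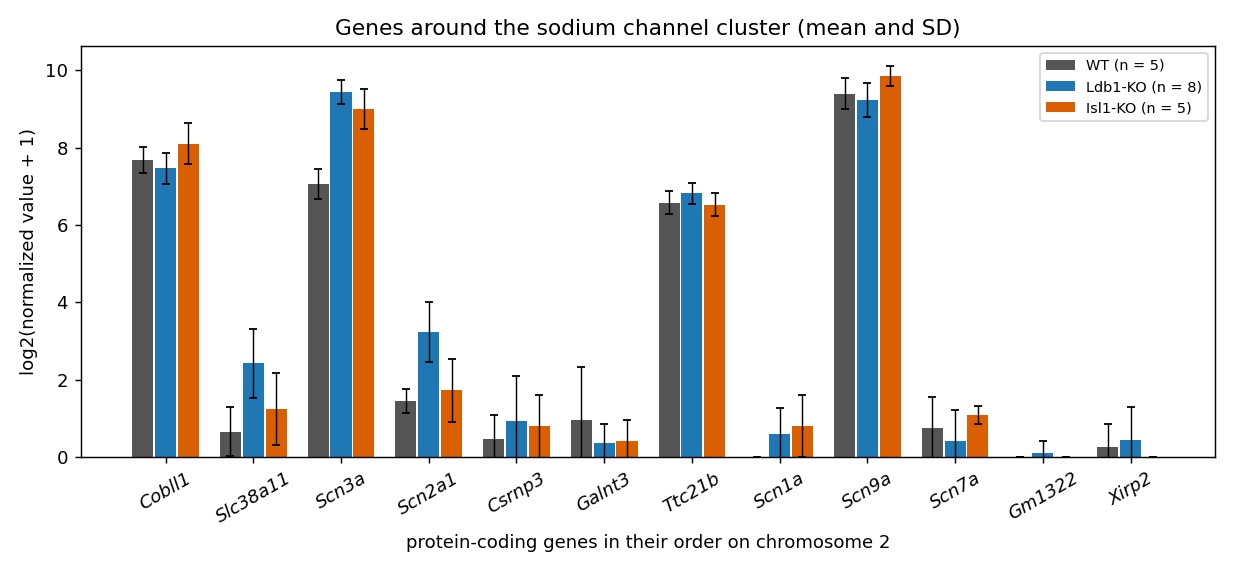
Group means of log2(normalized value + 1) as bars from 0 with SD, for genes of the chromosome 2 sodium channel cluster and its neighbours, in annotated order and not to genomic scale, for WT, Ldb1-KO and Isl1-KO. Both knockouts part from WT at Scn3a. In Ldb1-KO the means of Slc38a11 and Scn2a1 also lie above WT, though single libraries overlap, while Scn9a has means of 9.40, 9.23 and 9.85.

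The L-type pores Cacna1c and Cacna1d carry the calcium current that is known to start insulin release, with Cacna1c held to be the more important in mouse β-cells. For Cacna1c the log2 values were 7.63, 7.84, 7.10, 6.68 and 7.83 in WT, 6.76 to 7.28 with a median of 7.04 in Ldb1-KO, and 8.21, 8.24, 8.07, 7.04 and 7.19 in Isl1-KO. Both knockouts overlapped with WT. The log2 difference from WT was -0.38 (SE 0.21, adjusted p = 0.216, limma) in Ldb1-KO and 0.33 (SE 0.23, adjusted p = 0.368) in Isl1-KO. The former passed the threshold in the deeper libraries alone (-0.66, adjusted p = 0.00764). The latter was 0.76 (adjusted p = 0.0136) with the Isl1-KO libraries 1 to 3 alone and -0.30 (adjusted p = 0.566) with libraries 4 and 5 alone.

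Cacna1d gave log2 values of 8.35, 9.16, 8.81, 9.02 and 8.62 in WT, 8.22 to 9.02 with a median of 8.58 in Ldb1-KO, and 9.71, 9.95, 9.86, 8.56 and 8.80 in Isl1-KO. The Isl1-KO libraries 1 to 3 lay above all WT libraries and the other 2 lay among them. The log2 difference from WT was -0.18 (SE 0.21, adjusted p = 0.58, limma) in Ldb1-KO and 0.58 (SE 0.23, adjusted p = 0.0881) in Isl1-KO. With libraries 1 to 3 alone the Isl1-KO difference was 1.05 (adjusted p = 0.000316) and with libraries 4 and 5 alone it was -0.11 (adjusted p = 0.836). A further L-type pore, Cacna1f, known from the retina, stayed at or below 2.19 and did not pass against WT (adjusted p = 0.23 and 0.924). The transcription units of Cacna1c and Cacna1d overlap those of Dcp1b and of Chdh and Dcp1a, genes that are also in the table. Likewise Cacnb2 overlaps Gm13315, Scn9a Gm13629, Cacnb1 Rpl19, Cacna1h Tpsg1 and Cacna2d3 Lrtm1. Reads shared with these genes could enter the values.

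Cacna1a encodes the P/Q-type pore, which in nerve terminals opens next to release-ready vesicles. Its log2 values were 6.80, 7.10, 6.54, 7.05 and 6.69 in WT, 6.55 to 7.53 with a median of 7.37 in Ldb1-KO, and 8.49, 8.38, 8.39, 7.66 and 7.44 in Isl1-KO. Every Isl1-KO library was above every WT library. The rise in Isl1-KO was 1.24 on the log2 scale (SE 0.20, 2.36-fold in value plus 1, adjusted p = 0.000169, limma). With the Isl1-KO libraries 4 and 5 alone it was 0.71 (adjusted p = 0.0583). In Ldb1-KO the log2 difference was 0.44 (SE 0.18, adjusted p = 0.0972), and it passed the threshold without Ldb1-KO library 1 (0.54, adjusted p = 0.0241). The same difference of 0.44 passed in the fits with the Isl1-KO libraries 4 and 5 alone (adjusted p = 0.0475, limma) or 1 to 3 alone (0.0358). In the deeper libraries alone it was 0.59. Of all genes tested, 10.7% had Isl1-KO and WT libraries that did not overlap, and of the channel genes Scn3a, Scn3b, Scn4a and Cacna1a did, 4 of 23.

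**Figure D4:**
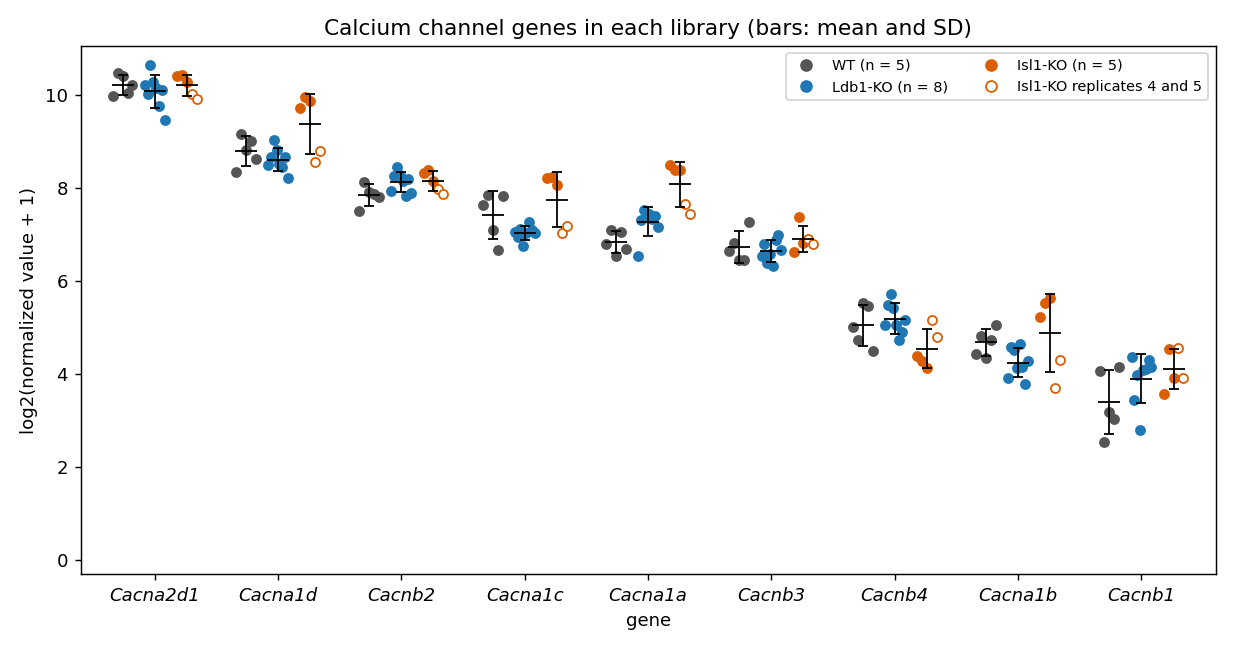
Log2(normalized value + 1) (vertical axis) of calcium channel genes in each of the 18 libraries, with a point per library (open for Isl1-KO libraries 4 and 5) and bars for group mean and SD. For Cacna1a all 5 Isl1-KO points (7.44 to 8.49) lie above the WT points (6.54 to 7.10), and for Cacna1c and Cacna1d 3 Isl1-KO points lie above the other 2.

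Cacna1b, the N-type pore, had log2 means of 4.68 ± 0.29 (SD, n = 5) in WT, 4.25 ± 0.31 (n = 8) in Ldb1-KO and 4.88 ± 0.84 (n = 5) in Isl1-KO. The Isl1-KO libraries 1 to 3 (5.23 to 5.63) lay above all WT libraries (4.36 to 5.06), and libraries 4 and 5 (3.71 and 4.30) lay below them. Cacna1b passed the test in neither comparison with WT (adjusted p = 0.299 and 0.718, limma). The T-type pores Cacna1g, Cacna1h and Cacna1i, which open near the resting potential, stayed at or below a log2 value of 2.56 in all 18 libraries. None of the 3 passed the test against WT in limma. The Isl1-KO difference from WT was 1.14 for Cacna1h (adjusted p = 0.105) and 1.21 for Cacna1i (adjusted p = 0.0688).

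Of the auxiliary subunits of calcium channels, none passed against WT but Cacng4. Cacna2d1, the α2δ subunit that binds gabapentin, had log2 values of 9.98, 10.5, 10.4, 10.0 and 10.2 in WT, 9.47 to 10.6 with a median of 10.1 in Ldb1-KO, and 10.4, 10.4, 10.3, 10.0 and 9.92 in Isl1-KO. The 3 groups overlapped, with the widest range in Ldb1-KO. The log2 difference from WT was -0.14 (SE 0.15, adjusted p = 0.579, limma) in Ldb1-KO and -0.01 (SE 0.17, adjusted p = 0.981) in Isl1-KO. The related Cacna2d2 and Cacna2d3 were low, with log2 means of 1.67 and 0.39 in WT, and neither passed against WT in Ldb1-KO (adjusted p = 0.957 and 0.201) or Isl1-KO (adjusted p = 0.332 and 0.672). Cacna2d2 reached 4.48 in 1 Ldb1-KO library.

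The β subunits carry the pore to the membrane and tune its opening. Cacnb2 had log2 values of 7.50, 8.13, 7.92, 7.87 and 7.80 in WT, 7.83 to 8.44 with a median of 8.17 in Ldb1-KO, and 8.32, 8.38, 8.16, 7.98 and 7.87 in Isl1-KO. Its log2 difference was 0.28 (SE 0.13, adjusted p = 0.139, limma) in Ldb1-KO and 0.30 (SE 0.14, adjusted p = 0.172) in Isl1-KO. Neither passed, and both groups overlapped with WT.

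Cacnb3 had log2 values of 6.65, 6.82, 6.46, 6.45 and 7.27 in WT, 6.33 to 6.98 with a median of 6.62 in Ldb1-KO, and 6.62, 7.37, 6.82, 6.90 and 6.80 in Isl1-KO. The groups overlapped, with adjusted p of 0.765 and 0.567 against WT (limma). Cacnb4 had log2 values of 5.01, 4.74, 5.53, 5.46 and 4.49 in WT, 4.74 to 5.71 with a median of 5.11 in Ldb1-KO, and 4.38, 4.28, 4.13, 5.15 and 4.80 in Isl1-KO. Its log2 difference from WT was 0.15 (adjusted p = 0.689, limma) in Ldb1-KO and -0.50 (SE 0.25, adjusted p = 0.188) in Isl1-KO. With the Isl1-KO libraries 1 to 3 alone the latter was -0.78 (adjusted p = 0.0411, limma). Cacnb4 was the 1 tested channel gene that was lower in the Isl1-KO libraries 1 to 3 (4.13 to 4.38) than in libraries 4 and 5 (5.15 and 4.80). Cacnb1 had log2 means of 3.40 ± 0.69 (SD, n = 5), 3.90 ± 0.53 (n = 8) and 4.10 ± 0.43 (n = 5) in WT, Ldb1-KO and Isl1-KO, with adjusted p of 0.272 and 0.18 against WT (limma).

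Among the γ subunits and their relatives, Cacng4 was the 1 of 8 genes that could be tested. It was listed at 0 in 4 of 5 WT libraries and at a log2 value of 1.39 in the other. The Ldb1-KO libraries ran from 0 to 2.44 and the Isl1-KO libraries gave 1.03, 3.01, 1.51, 2.23 and 1.00. Its rise in Isl1-KO was 1.48 on the log2 scale (SE 0.50, adjusted p = 0.0453, limma), with overlap between the groups. Its mean normalized value was 0.324 in WT, so it was tested through its level in the knockouts. The authors' deposited table gives an FDR of 0.0943 for it.

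The direct comparison of the knockouts set the Ldb1-KO group against the Isl1-KO group, which also differ in age and tamoxifen dose. It called 1 channel gene higher in Ldb1-KO than in Isl1-KO and 4 lower (0 with the Isl1-KO libraries 4 and 5 alone), where 6.96% of all genes tested were higher and 6.31% lower, 13.3% in either direction. The higher one was Scn2a1 and the lower ones Cacna1a, Cacna1c, Cacna1d and Scn9a. In none of the 23 did the libraries of the knockouts separate without overlap, against 4.78% of all genes tested. The difference of Scn2a1 was 1.51 on the log2 scale (SE 0.40, adjusted p = 0.0138, limma). Without Isl1-KO library 3 it was 1.33 (adjusted p = 0.0552), and with the Isl1-KO libraries 4 and 5 alone 1.25 (adjusted p = 0.296).

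All 3 called calcium channel genes encode pores, and each was lower in Ldb1-KO than in Isl1-KO. The log2 difference was -0.80 (SE 0.18, adjusted p = 0.00501, limma) for Cacna1a, -0.71 (SE 0.21, adjusted p = 0.0272) for Cacna1c and -0.77 (SE 0.21, adjusted p = 0.0155) for Cacna1d. These values rest on the Isl1-KO libraries 1 to 3. With libraries 4 and 5 alone they were -0.28 (adjusted p = 0.599), -0.08 (adjusted p = 0.924) and -0.07 (adjusted p = 0.913). Leaving out only one of the Isl1-KO libraries 1, 2 and 3 in turn gave adjusted p of 0.101, 0.0998 and 0.0904 for Cacna1c and 0.0565, 0.0635 and 0.0655 for Cacna1d. Scn9a differed by -0.61 (SE 0.19, adjusted p = 0.0386), and by -0.395 (adjusted p = 0.559) with the Isl1-KO libraries 4 and 5 alone. That call was also lost in 7 of 18 fits with 1 library left out, with no filter (adjusted p = 0.0541, limma), without trend and robust settings (0.0709) and in the shallower libraries (0.291). In the deeper libraries, which hold 1 Isl1-KO library, the Scn9a difference was -0.83. For Scn3a and Scn3b the Ldb1-KO values were higher than the Isl1-KO values by 0.43 (SE 0.20, adjusted p = 0.158) and 0.64 (SE 0.23, adjusted p = 0.0685), differences that did not pass the test.

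Genes of the proteins that work with these channels were called in both directions. Of 36 partner genes, such as channel-binding, trafficking and active-zone proteins, 34 were in the table and 26 were tested. In Ldb1-KO 2 rose and 2 fell, where 10.6% of all genes tested rose and 11.0% fell, and the median log2 difference was 0.05. Fgf12, whose product binds the tail of sodium channel pores, rose by 1.19 on the log2 scale (adjusted p = 6.18e-06, limma), and Nedd4l, a ubiquitin ligase that lowers sodium channels at the membrane, by 0.62 (adjusted p = 0.0024). Rims3, of the RIM family of active-zone proteins, fell by 2.23 (adjusted p = 1.18e-05), and Gpd1l, linked to the cardiac sodium current, fell by 0.59 (adjusted p = 0.00755). In Isl1-KO 3 rose and 3 fell, against 7.02% and 8.39% of all genes, with a median of 0.04. There Fgf12 rose by 0.82 (adjusted p = 0.00273) and Nedd4l by 0.60 (adjusted p = 0.0122), while Rims3 fell by 1.31 (adjusted p = 0.0132). Ahnak, a large scaffold protein that binds calcium channel β subunits, fell by 2.16 (adjusted p = 0.00582). With the Isl1-KO libraries 4 and 5 alone Nedd4l differed by 0.25 (adjusted p = 0.483) and Ahnak by -1.79 (adjusted p = 0.0962), and with libraries 1 to 3 alone Rims3 differed by -0.98 (adjusted p = 0.0833). For Nedd4l the authors' deposited table gives an FDR of 0.177. Between the knockouts 0 were higher and 1 lower in Ldb1-KO, where 6.96% of all genes tested were higher and 6.31% lower. The lower one was Rims2, which differed by -0.32 (adjusted p = 0.0386, limma). This call was lost in 8 of 18 fits with 1 library left out, with only the groups compared (adjusted p = 0.0629) and with the Isl1-KO libraries 4 and 5 alone (-0.15, adjusted p = 0.66), and the authors' deposited table gives an FDR of 0.417.

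Calcium pumps, stores and uptake were covered by 35 genes, of which 31 were in the table and 27 tested. In Ldb1-KO 4 rose and 8 fell, where 10.6% of all genes tested rose and 11.0% fell, with a median log2 difference of -0.04. Atp2a2, the calcium pump of the endoplasmic reticulum, fell by 1.88 on the log2 scale (adjusted p = 7.18e-10, limma), from a mean of 13.3 to 11.4. Stim2, a sensor of calcium in that store, fell by 0.87 (adjusted p = 1.03e-04), and Cbara1, a regulator of mitochondrial calcium uptake, fell by 0.57 (adjusted p = 0.00245). Ccdc109b, a subunit that restrains the mitochondrial calcium uniporter, rose by 2.13 (adjusted p = 2.37e-06). In Isl1-KO 4 rose and 4 fell, against 7.02% and 8.39% of all genes, with a median of -0.09. Slc24a3 was again among those that rose. Atp2a2 fell by 1.70 (adjusted p = 4.81e-08) and Atp2a3, the related pump, by 0.80 (adjusted p = 0.00891), while the plasma membrane pump Atp2b4 rose by 0.76 (adjusted p = 0.0119) and Ccdc109b by 1.00 (adjusted p = 0.0246). With the Isl1-KO libraries 4 and 5 alone these differences were -0.92 (adjusted p = 0.0542) for Atp2a3, 0.33 (adjusted p = 0.492) for Atp2b4 and 0.74 (adjusted p = 0.32) for Ccdc109b. The Ccdc109b call was also lost without WT library 2 (adjusted p = 0.0713), WT library 4 (0.0765) or Isl1-KO library 1 (0.0793), and the authors' deposited table gives it an FDR of 0.132. Between the knockouts 1 was higher in Ldb1-KO, Ccdc109b by 1.12 (adjusted p = 0.00698), and 1 lower, Stim1 by -0.40 (adjusted p = 0.0158), where 6.96% and 6.31% of all genes were called. With libraries 4 and 5 alone these were 1.39 (adjusted p = 0.0559) and -0.32 (adjusted p = 0.322), and without Isl1-KO library 3 that of Stim1 was -0.37 (adjusted p = 0.0531). These 2 lists, like the marker lists, were drawn up with earlier results of these libraries known, so their counts describe the libraries.

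The authors' deposited table gives its own log2 fold changes and FDR for the same comparisons. For Scn3a it gives 2.28 (FDR 9.14e-25) in Ldb1-KO and 1.78 (FDR 6.00e-12) in Isl1-KO against WT, and for Scn3b 1.93 (FDR 3.85e-12) and 1.26 (FDR 0.00114). By its FDR, 4 channel genes of the authors' deposited table pass 0.05 in each of the 3 comparisons, but not the same 4. In Ldb1-KO against WT they were Scn3a, Scn3b, Scn2a1 and Scn4a, and in Isl1-KO against WT Scn3a, Scn3b, Scn4a and Cacna1a. Between the knockouts they were Scn2a1, Cacna1a, Cacna1c and Cacna1d. The share of all genes that pass by that FDR is not given here. The authors' deposited table differs from the test used here in Isl1-KO against WT, where it puts Scn8a at an FDR of 0.104 and Cacng4 at 0.0943. Between the knockouts it puts Scn9a at 0.0759.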

How the data were processed

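RNA was measured in 18 libraries of sorted mouse β-cells, made from total RNA with a ScriptSeq low-input kit, per the labels' protocols. The authors' deposited table gives 1 log2 value per gene and library for 21913 genes, with their own log2 fold changes, p-values and FDR for each comparison. Its normalization is not stated. It was taken to be log2 of a normalized value plus 1, since values start at 0, with equal top values in all libraries, which leaves no library totals. Single values also recur in several libraries, such as 1.816 among low genes and 17.975 among the highest. The values may therefore follow ranks. A read step then need not be of constant worth, the deeper and shallower sets need not follow depth, and sums of the highest genes may be bounded. Per the submitters' processing notes HOMER, edgeR and build mm9 were used. The aligner, the counting and any use of strand are not stated there. The table's columns were matched to samples by name, with 0 columns of per-sample values unused.

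The count test planned first could not be used on log2 values. The filter kept 13501 genes, those that averaged a normalized value of 1 or more, and log2(value + 1) was tested with limma 3.58.1 in R 4.3.3 (intensity trend, robust, statmod 1.5.0) in 1 fit of 18 libraries, with Benjamini-Hochberg adjustment over all genes and a threshold of 0.05. SE is the moderated standard error. Fold changes are of value plus 1 and understate changes of low genes. The scripts were tested on simulated data. Channel genes described by library were those called in any comparison if their mean log2 value reached 2 in the higher of the groups, and the 10 with the highest WT mean, 13 in all. Of the partner and calcium-handling lists, the called genes with the 4 smallest p were named. Other genes were named after their values were seen. Members and lists were chosen with earlier results of these data known. Promoter letters and gene order come from RefSeq tables of GRCm38.p6, with 39 symbols matched directly and 1 by synonym. The deposited ChIP-seq peak lists were not analysed here, and values of some genes are not reported here.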

Additional observations from a re-analysis of the deposited data

Results flagged for a closer look

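In 2 of 39 groups checked, over the 13 described genes, 1 library lay farther from its nearest neighbour than a 95% critical value of Dixon's ratio allows, and chance gives about 1 in 20. Cacna1a in Ldb1-KO library 1 had a log2 value of 6.547, with the nearest other Ldb1-KO library at 7.17. Scn3a in Ldb1-KO library 8 had a log2 value of 8.79, with the nearest at 9.339, and it still lay above every WT library.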

How the results depend on the processing

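Of 1737 values under the alternatives, for the described channel genes and the named partner and calcium-handling genes, 1598 kept their direction and their side of the threshold. The cause of the changes below was not tested. Scn3a was called higher against WT in Ldb1-KO under every alternative run, and Scn3b in Ldb1-KO likewise. In Isl1-KO Scn3a was called higher under every alternative that held more than 1 Isl1-KO library. With 1 library left out, the log2 difference in Ldb1-KO was 2.26 to 2.47 for Scn3a, 1.83 to 1.98 for Scn3b, 1.65 to 1.997 for Scn2a1 and 1.66 to 2.01 for Scn4a.

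Direction was reversed for small differences. In Isl1-KO against WT the reversed log2 differences were, with the Isl1-KO libraries 4 and 5 alone, -0.303 for Cacna1c and -0.112 for Cacna1d, with the deeper libraries alone 0.191 for Cacna2d1, -0.138 for Cacnb3 and -0.79 for Scn2a1, with the Isl1-KO libraries 1 to 3 alone 0.153 for Cacna2d1, and for Cacnb3 -0.0393 in the authors' deposited table. In Ldb1-KO against WT they were, with the deeper libraries alone, 0.0153 for Cacna1d and 0.0779 for Scn9a, and 0.0808 for Cacna2d1 with the shallower libraries alone. Between the knockouts they were, with the shallower libraries alone, 0.192 for Cacna2d1 and 0.0761 for Cacnb2, with the Isl1-KO libraries 4 and 5 alone 0.112 for Cacna2d1, 0.191 for Cacnb2 and 0.317 for Scn4a, and for Cacnb2 0.0489 in the authors' deposited table. Leaving out 1 library gave ranges across 0 of -0.0685 to 0.0638 for Cacna2d1 and -0.0387 to 0.451 for Scn2a1 in Isl1-KO against WT, -0.151 to 0.0537 for Cacnb3 in Ldb1-KO against WT, and -0.0892 to 0.0368 for Cacnb2 between the knockouts.

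For same-numbered libraries the correlations of their deviations ran from -0.119 to 0.256 for Ldb1-KO with WT. They were -0.167 to 0.164 for Isl1-KO with WT and -0.081 to 0.129 between the knockouts. Differently numbered libraries were not compared in this way, so whether the numbers pair the libraries was not tested. With a replicate block, 4, 5 and 5 channel genes were called in Ldb1-KO against WT, Isl1-KO against WT and between the knockouts, and the log2 difference of Cacna2d1 was 0.0445 in Ldb1-KO against WT and 0.0532 between the knockouts, and that of Cacnb2 between the knockouts 0.0661, all reversed. Between the knockouts the block lost Cacna1d (adjusted p = 0.0518) and Scn9a (-0.484, 0.0933) and gained Cacnb4 (0.80, 0.043) and Scn3b (0.85, 0.0371).

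Counts of called channel genes in Isl1-KO against WT (6) became 2 with the Isl1-KO libraries 4 and 5 alone and 10 with libraries 1 to 3 alone, and ranged from 4 to 7 with 1 library left out. Between the knockouts (5) they became 0 with libraries 4 and 5, 8 with libraries 1 to 3, 0 in the shallower libraries and 3 without trend and robust settings, and with 1 library left out they ranged from 1, without Isl1-KO library 3, to 9, without Isl1-KO library 4. Partner genes in Isl1-KO against WT (6) became 2 in the shallower libraries, 3 with libraries 4 and 5 and 12 with libraries 1 to 3. Between the knockouts (1) they became 4 in the deeper and 2 in the shallower libraries, 0 with only the groups compared, 0 with libraries 4 and 5, 9 with libraries 1 to 3 and 0 to 5 with 1 library left out. Calcium-handling genes became 5 in the shallower libraries and 7 to 12 with 1 left out in Ldb1-KO against WT (12). In Isl1-KO against WT (8) they became 3 in the deeper and 4 in the shallower libraries, 4 with only the groups compared, 3 with libraries 4 and 5 and 4 to 9 with 1 left out. Between the knockouts (2) they became 0 in the deeper and 0 in the shallower libraries, 0 with libraries 4 and 5, 6 with libraries 1 to 3, 1 in the authors' deposited table and 1 to 4 with 1 left out. Over all genes, calls went from 2925 to 1608 in the shallower libraries for Ldb1-KO against WT. For Isl1-KO against WT they went from 2081 to 1216 in the deeper libraries, 1054 in the shallower and 1113 with libraries 4 and 5. Between the knockouts they went from 1792 to 992 in the shallower libraries, 336 with libraries 4 and 5, 3004 with libraries 1 to 3 and 1081 to 2238 with 1 left out.

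Depth limits the low genes: one read step is worth about 1 normalized unit, and Scn4a, Cacng4 and the T-type pores lie within a few steps. The planned comparison of LDB1 and ISL1 peaks near the channel genes and that of the channel proteins were not run.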
